A study of Arabidopsis thaliana with 357 samples.

Results

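The jasmonate sector on its own was examined by comparing Jeps with jeps, 2 Arabidopsis genotypes that differ at DDE2 alone. Capital letters stand for an intact gene and small letters for a mutated gene, in the order DDE2 (J), EIN2 (E), PAD4 (P) and SID2 (S). Jeps was the triple mutant ein2-1 pad4-1 sid2-2, in which DDE2 is the only intact member of the set, and jeps was the quadruple mutant, which carries dde2-2 besides those 3 alleles, so the control lacked the ethylene, PAD4 and salicylate sectors as well. The members were 42 Tag-Seq libraries of 357 in the series, chosen by genotype label, with 21 from Jeps and 21 from jeps in 3 replicates, before infiltration (0 h) and at 6 time points from 1 to 18 h after it. Tag-Seq counts reads near the polyadenylated end of transcripts. Leaves of 31- to 32-day-old plants were syringe-infiltrated with 1 µM flg22, a peptide of bacterial flagellin that is perceived by the receptor FLS2, and each library came from a pool of 12 leaves from 4 experiments. Leaves at 0 h were not infiltrated and neither genotype had mock-infiltrated leaves, so the effects of flg22, infiltration and time of day on a change from 0 h cannot be told apart. Each mutation was present as a single allele in the Col-0 background.

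DDE2 encodes allene oxide synthase, which acts between the lipoxygenases and the allene oxide cyclases in the synthesis of jasmonate (JA) from linolenic acid in the chloroplast. OPR3 and peroxisomal oxidation complete the synthesis, and JAR1 joins JA to isoleucine. The conjugate brings the receptor COI1 together with JAZ repressor proteins, which are then degraded, and transcription factors such as MYC2 are released. MYC2 and its relatives bind the G-box, and many of their targets encode JA biosynthetic enzymes and the JAZ repressors themselves, so the pathway feeds back on its own transcripts. In leaves, JA is known for responses to wounding, insects and necrotrophic pathogens, and for its cross-talk with salicylate.

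The promoters of the JA genes are shown first because the G-box is the element bound by MYC2. The motif CACGTG, which reads the same on both strands, was searched in the 250 bases before the annotated gene start (RefSeq, TAIR10.1). It was present in 1105 of 14785 tested genes with a promoter sequence (7.47%), in 12 of the 82 genes later called higher in Jeps (14.6%), in 1 of the 10 genes called higher at 4 or more time points (10%) and in none of the 10 called lower. By list, it was present in 5 of 16 genes of JA receptor and repressors (31.2%), 3 of 12 JA transcription factors (25%), 2 of 22 genes of JA synthesis (9.09%), 1 of 11 of JA breakdown (9.09%) and 1 of 15 of JA output (6.67%), so the shares of the last 3 lists were near that of all genes. These shares are descriptions of letters in a window, and occupancy was not measured. The windows below hold the motif in capitals with up to 30 bases on each side, and they come from DDE2 and from JAZ repressor genes whose counts are described further on. They lie at chr5:17099596-17099631 on the minus strand for DDE2, chr1:28150477-28150542 on the minus strand for JAZ2, chr3:6119537-6119602 and chr3:6119595-6119660 on the plus strand for JAZ3, chr2:14572966-14573029 on the plus strand for JAZ7, chr1:10596312-10596351 on the plus strand for JAZ8 and chr3:7879870-7879935 on the minus strand for AT3G22275. Each sequence is written 5′ to 3′ on the strand of its gene.
DDE2: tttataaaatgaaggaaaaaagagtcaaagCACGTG
JAZ2: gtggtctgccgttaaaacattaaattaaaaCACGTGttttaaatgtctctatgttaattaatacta
JAZ3, distal: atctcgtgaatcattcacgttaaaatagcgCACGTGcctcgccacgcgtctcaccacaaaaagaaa
JAZ3, proximal: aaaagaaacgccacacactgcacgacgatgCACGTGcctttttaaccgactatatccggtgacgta
JAZ7: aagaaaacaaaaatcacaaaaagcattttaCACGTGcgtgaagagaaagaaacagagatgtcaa
JAZ8: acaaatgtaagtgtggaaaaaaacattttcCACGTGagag
AT3G22275: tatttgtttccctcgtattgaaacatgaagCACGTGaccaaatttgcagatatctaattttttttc
The motif lay 6 bases before the start of DDE2 and 10 bases before that of JAZ8, and 34 to 140 bases before the others.

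The 42 libraries held 372525 to 2138720 reads on genes, with a median of 1225670, and the 6 libraries at 0 h held 664684 to 1355630. Counts were divided by the 90th percentile count of the library relative to 300, and a normalized count is a count on this scale. A group had 3 libraries throughout, and 20 of the 21 pairs of a Jeps and a jeps library with the same time point and replicate number shared a sequencing lane, the exception being replicate 1 at 1 h. The sequencing machine was labeled umn for replicate 1 and tsl for replicate 3 in both genotypes. Replicate 2 was on umn up to 3 h and on tsl from 5 h, so its changes from 0 h at 5 h and later also span machines. Transcripts that mark leaf cells were present in all libraries, with summed normalized counts of 17 leaf genes between 64755 and 756995, whereas 7 genes that mark seeds, flowers or root endodermis summed to between 0 and 191. Most of the latter came from SESA1, a seed storage albumin, with normalized counts of 121, 150 and 187 in Jeps at 1 h and 2.68 to 9.09 in jeps. At 2 h it had 47.9, 71.4 and 102 in Jeps and no reads in jeps. The level of SESA1 was called higher in Jeps at 1 h (log2 difference 4.73 ± 0.92, adjusted p = 2.33e-08), 2 h (adjusted p = 7.48e-08) and 3 h (adjusted p = 0.00127). AG, a floral regulator, reached 60.9 in a jeps library, CRA1 reached 8.82 and CASP1 2.5, and CRC, OLEO1 and AP1 had no reads, and the part of these transcripts in any result was not tested. In bulk leaf samples, fewer cells of a type and less RNA per cell cannot be told apart.

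The labels were checked on the mutated genes. DDE2 (AT5G42650, chromosome 5, 17097564 to 17099595) had 1492, 1587 and 1004 normalized counts in Jeps at 0 h and 88.2, 123 and 122 in jeps, and over all time points Jeps lay between 1004 and 12210 and jeps between 16.4 and 271. The genotypes did not overlap at any time point, as their labels state. EIN2, the central regulator of ethylene signaling, had 7.41 to 157 normalized counts in Jeps and 17.9 to 122 in jeps. PAD4, a lipase-like regulator of salicylate-dependent immunity, had at most 52.5 normalized counts in Jeps and 40 in jeps. SID2, the isochorismate synthase of salicylate synthesis, had at most 30.6 in Jeps and 18.5 in jeps and was not tested. In JEPS, the Col-0 plants with all 4 genes intact, EIN2 had 40.9 to 239 normalized counts, PAD4 19.7 to 774 and SID2 44.7 to 1106. FLS2 had 996, 990 and 848 normalized counts in Jeps at 1 h and 849, 1064 and 539 in jeps, against 0 to 13.6 at 0 h, so the groups overlapped at both time points.

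Before infiltration, 18 genes were higher and 3 were lower in Jeps than in jeps. Of the 15004 genes tested, 0.12% and 0.02% were called, where a call needed an adjusted p under 0.05 (edgeR quasi-likelihood test, Benjamini-Hochberg) and an absolute log2 difference above 1. Besides DDE2 (log2 difference 3.58 ± 0.32 (SE, n = 3 per genotype), adjusted p = 5.20e-19), the biosynthetic genes AOC1 and OPR3 were higher at 0 h, by 2.16 ± 0.35 and 1.38 ± 0.33. Genes known as JA outputs that were higher included VSP1 and VSP2, which encode vegetative storage proteins, and MBP1, a myrosinase-binding protein. TGG2, a myrosinase that cleaves glucosinolates, had 2313, 1930 and 2982 normalized counts in Jeps and 556, 573 and 609 in jeps, without overlap (log2 difference 2.05 ± 0.36, adjusted p = 0.000145). VSP2 had 174, 335 and 67.3 in Jeps and no reads in jeps, a difference of at least 38.5-fold when jeps is set to 3 reads per library. In the other direction, LTP3, a lipid transfer protein, had 134, 100 and 147 normalized counts in Jeps and 794, 618 and 816 in jeps (-2.56 ± 0.52, adjusted p = 0.00276). LTP2 and QQS were the other genes that were lower in Jeps at 0 h. TGG2, LTP3, LTP2 and QQS lie outside the lists and were named after their values were seen.

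Transcripts changed widely in both genotypes after infiltration. In Jeps, 4813 genes rose (32.1%) and 6177 fell (41.2%) from 0 h at 1 or more time points, and 10541 of the 15004 tested genes changed (70.3%). In jeps, 4957 rose (33%) and 5976 fell (39.8%), and 10535 changed (70.2%). The transcript response change was the change from 0 h in Jeps minus that in jeps, at the same time point. It was called in 92 genes at 1 or more time points (0.613%), of which 82 were higher (0.547%) and 10 were lower (0.0666%) with DDE2 intact.

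The response change was most frequent at 1 h and became rarer with time. At 1 h, the response change was higher in Jeps in 63 genes (0.42%) and lower in 3 (0.02%). Higher calls numbered 31 by 2 h (0.207%), 22 by 3 h (0.147%), 14 by 5 h (0.0933%), 11 by 9 h (0.0733%) and 2 by 18 h (0.0133%). Lower calls numbered 3 (0.02%) at both 2 h and 3 h, 4 (0.0267%) when 5 h had passed, 1 (0.00666%) after 9 h and 2 (0.0133%) after 18 h. Of the 82 genes, 63 were called at the earliest time point, 9 were first called at 2 h and the remainder later, and 10 were called at 4 or more time points. When each replicate was left out, 25, 33 and 21 genes were called at 1 h without replicate 1, 2 and 3, so these counts depend on the number of libraries. In a test of the difference in response change between 1 h and 18 h, 84 genes were higher (0.56%) and 8 were lower (0.0533%) at 1 h, 92 in all. With a term for each time point and replicate number, 158 genes were called at 1 h and 101, 93, 65, 49 and 23 at the later time points in order, and 302 in the test of 1 h against 18 h. This term takes up whatever same-numbered libraries share, including a sequencing lane in most pairs, and does not separate lane from experiment. The median response change over all genes was -0.10 at 1 h and between -0.05 and -0.01 later.

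**Figure D1:**
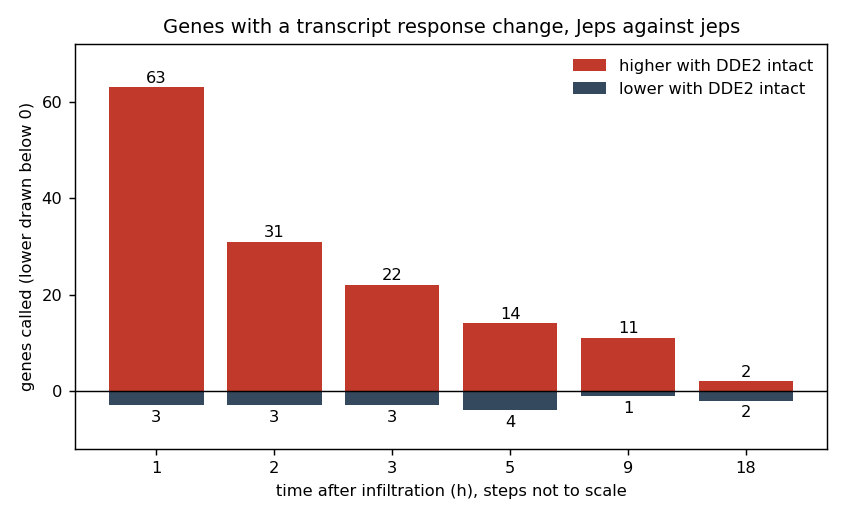
Number of genes called in the transcript response change of Jeps against jeps (vertical axis, with lower response changes drawn below 0) at each time after infiltration (horizontal axis, h). The bars for higher genes shrink from 63 at 1 h to 2 at 18 h, while 1 to 4 genes were lower at any time point.

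From 0 h to 1 h, 17.3% of the tested genes rose and 28.4% fell in Jeps, and 17.5% rose and 25.8% fell in jeps. The shares of rising and falling genes at 3 h were 19.2% and 24.6% in Jeps and 19.3% and 26.1% in jeps, those at 5 h were 18.7% and 23.1% in Jeps and 20.2% and 24.1% in jeps, and those at 9 h were 15.9% and 16% in Jeps and 16% and 16.1% in jeps. A higher response change arose from different courses in the 2 genotypes, and the courses shifted with time. Of the 63 genes at 1 h, 17 rose from 0 h in both genotypes, 22 rose only in Jeps, 4 rose in Jeps and fell in jeps, 15 fell only in jeps, 4 fell in both and 1 was not called in either. At 3 h, 11 of 22 fell only in jeps and 5 rose only in Jeps. At 5 h, 10 of 14 fell only in jeps, and at 9 h 5 of 11 rose in Jeps and fell in jeps. Their median change from 0 h was 2.06 in Jeps and -0.39 in jeps at 1 h, and 0.37 and -2.18 at 3 h on the log2 scale. "Only" here refers to the call in each genotype.

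**Figure D2:**
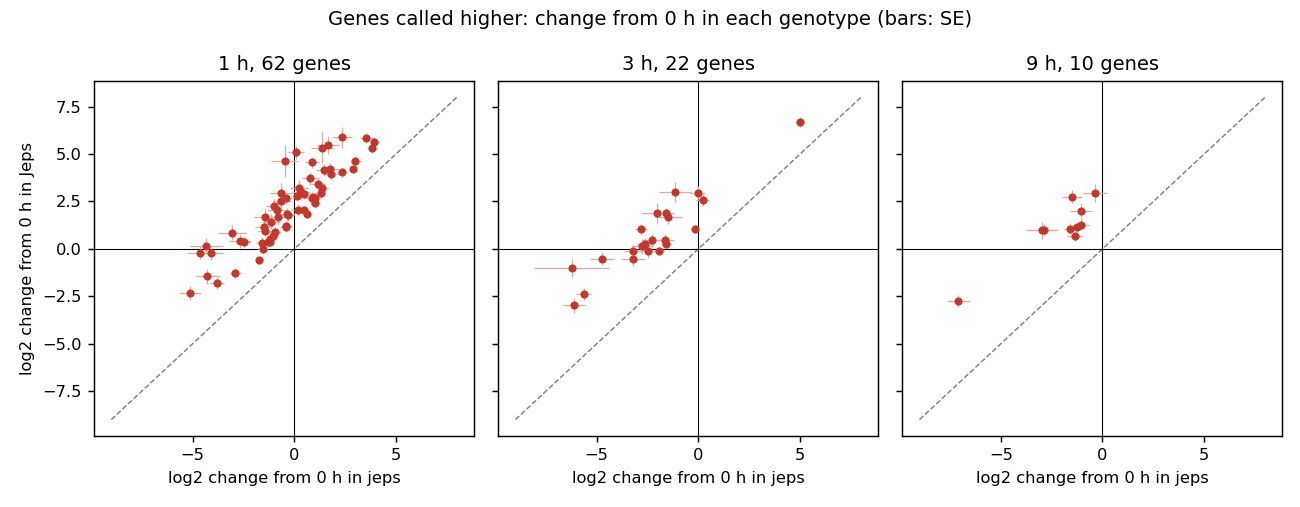
Log2 change from 0 h in jeps (horizontal axis) and in Jeps (vertical axis) of the genes called higher at 1, 3 and 9 h, without genes that lacked reads in a group. Points are genes, bars are SE and the dashed line marks equal change; the points sit above the line by the rule of the call, on both sides of 0 in jeps at 1 h, where the median change of the called genes was -0.39, and mostly below 0 at 3 h, where it was -2.18.

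JA biosynthetic genes formed the list with the most calls. Of its 22 members, 20 were tested and 7 were higher in Jeps at 1 or more time points, namely DDE2, LOX2, AOC1, AOC2, OPR3, JAR1 and JMT, and none was lower. Over all tested genes, 0.547% were higher and 0.0666% lower. The median response change of the 20 genes was 1.46 at 1 h and 0.10 at 18 h, beside -0.10 and -0.03 over all tested genes. In level, 13 of the 20 were higher in Jeps at 1 or more time points from 1 h on, where 457 of all tested genes were higher (3.05%) and 169 lower (1.13%), 4.17% in either direction. Of the 7, JAR1 was called at 1 h, OPR3 at 1 and 2 h, AOC1 at 9 h and JMT at 1, 2 and 9 h. The list had 4 called members without replicate 3 and 11 with the term for time point and replicate number.

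DDE2, the gene that defines the comparison, rose in Jeps to 8925, 12210 and 9683 normalized counts at 1 h and was at 6057, 8800 and 8494 at 2 h. In jeps it was at 91.1, 109 and 271 at 1 h and at 46.2, 27.6 and 19.8 at 2 h, and the transcript that remained was lower there at 2 h than at 0 h (-1.86 ± 0.41). The response change was 2.41 ± 0.43 at 1 h (adjusted p = 0.000202) and reached 4.38 ± 0.49 at 2 h (adjusted p = 9.15e-13), and by 18 h it was 0.52 ± 0.43 (adjusted p = 1). Since the allele differs between the genotypes, the counts of DDE2 describe the mutation as well as the pathway.

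LOX2, the chloroplast lipoxygenase upstream of DDE2, was called at all 6 time points. At 3 h it had 5934, 6225 and 5198 normalized counts in Jeps and 260, 230 and 237 in jeps, while at 0 h it had 3079, 3552 and 1843 in Jeps and 1782, 2218 and 1200 in jeps. The genotypes overlapped at 0 h and were far apart at 3 h, and LOX2 rose moderately in Jeps (1.03 ± 0.29) and fell steeply in jeps (-2.84 ± 0.30). The response change reached 3.87 ± 0.42 at 3 h (adjusted p = 1.49e-12) and was 1.67 ± 0.41 at 18 h (adjusted p = 0.0418).

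Further along the pathway, AOC2, an allene oxide cyclase, had 6138, 7060 and 12178 normalized counts in Jeps at 1 h and 801, 1764 and 1739 in jeps. It rose in both genotypes at 1 h, more in Jeps (1.86 ± 0.44, adjusted p = 0.028), and the difference was 2.38 ± 0.44 at 3 h. AOC1, AOC2 and AOC3 are close copies, so the split of reads among them is uncertain even though only reads mapping to 1 gene were counted. OPR3, the reductase that follows, had 166, 165 and 184 normalized counts in Jeps at 0 h and 8545, 10640 and 10470 at 1 h. In jeps it rose from 61.8, 77.3 and 56.2 to 576, 1000 and 761. OPR3 thus rose steeply without DDE2 as well, by 3.55 ± 0.31 in jeps and 5.84 ± 0.27 in Jeps, and the response change at 1 h was 2.3 ± 0.41 (adjusted p = 0.000255).

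The 2 enzymes that modify JA moved against a flat or falling course in jeps. JAR1, which makes the isoleucine conjugate, had 694, 1240 and 709 normalized counts in Jeps at 1 h and 80.4, 191 and 57.1 in jeps, from overlapping levels of 98 to 200 and 112 to 200 at 0 h. Its response change was 3.18 ± 0.62 (adjusted p = 0.00108). JMT, the methyltransferase that makes methyl jasmonate, had 122, 210 and 189 in Jeps at 9 h and 21.4, 8.33 and 11.1 in jeps, a response change of 3.94 ± 0.90 (adjusted p = 0.00327).

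**Figure D3:**
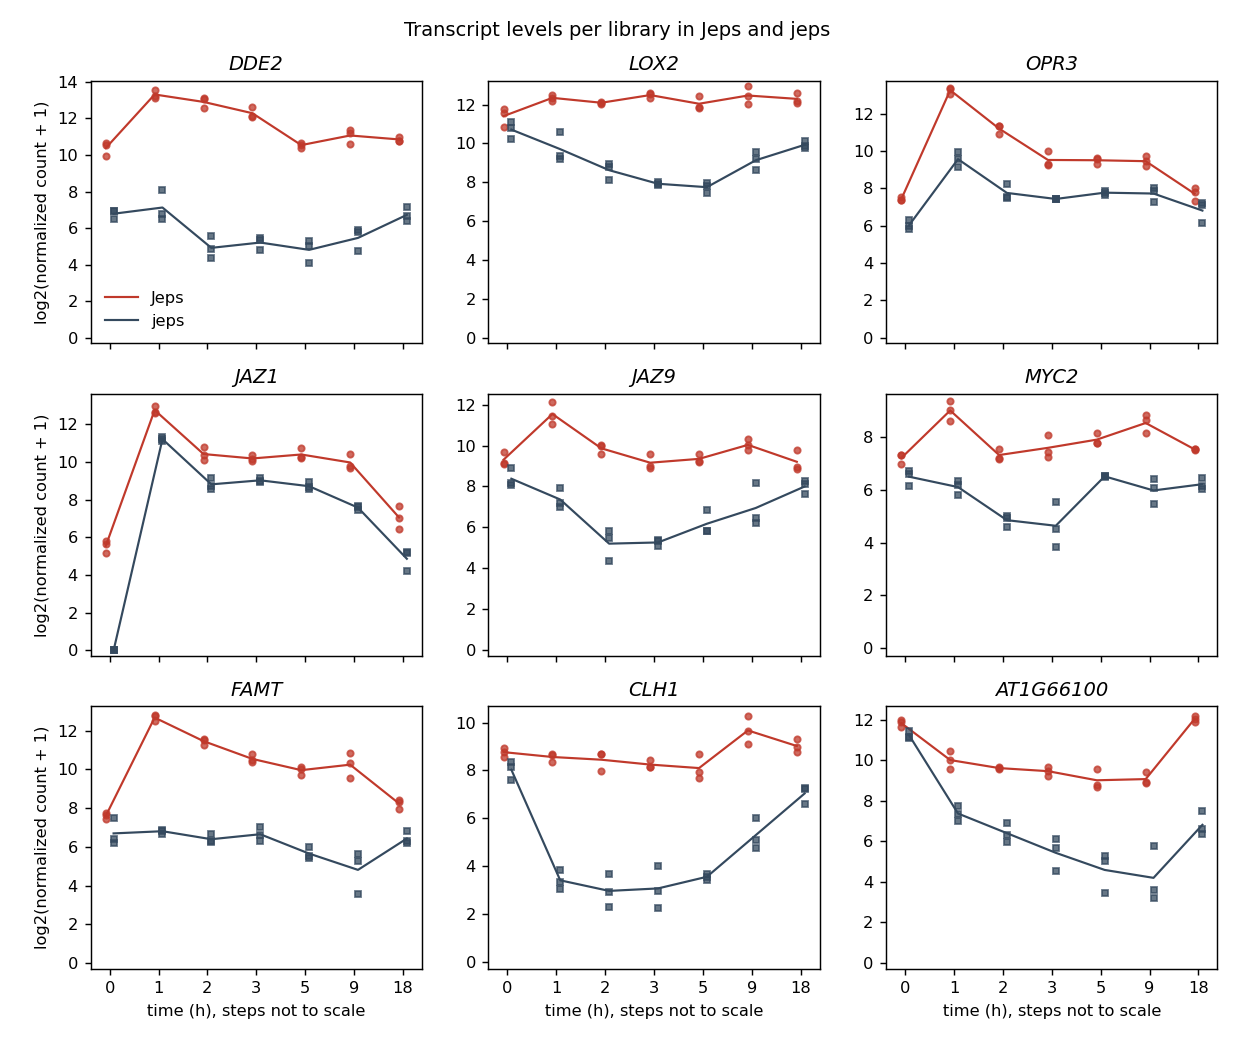
Log2 of normalized count plus 1 (vertical axis) of 9 genes at 0 to 18 h (horizontal axis, h) in Jeps (circles) and jeps (squares), each point a library and each line the mean of 3. LOX2, CLH1 and AT1G66100 separate through a fall in jeps, FAMT and OPR3 through a steeper rise in Jeps, and JAZ1 has no reads in jeps at 0 h.

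Among the JA receptor and repressors, 15 of 16 list members were tested, 3 were higher in the response change (JAZ2, JAZ3 and JAZ9) and 1 was lower (JAZ1), while 11 were higher in level at 1 or more time points from 1 h on. The shares over all tested genes were 0.547%, 0.0666% and 3.05%, in this order. COI1, the co-receptor, was not among the genes with a called response change. JAZ9 had 2135, 2750 and 4539 normalized counts in Jeps at 1 h and 126, 145 and 239 in jeps. It rose in Jeps and fell in jeps, and the response change was 3.30 ± 0.52 at 1 h (adjusted p = 5.78e-06) and 3.68 ± 0.58 at 2 h (adjusted p = 2.1e-06). JAZ2, with the G-box shown above, had 1087, 1440 and 978 in Jeps at 1 h and 134, 136 and 114 in jeps, a response change of 2.96 ± 0.50 (adjusted p = 3.09e-05). JAZ3, whose promoter window held 2 copies of the motif, had 74.3, 115 and 97.5 in Jeps at 3 h and 10, 10.9 and 7.41 in jeps. It did not change from 0 h by the test in Jeps and fell in jeps, and the response change was 2.70 ± 0.70 (adjusted p = 0.0347).

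JAZ1 was called lower in the response change at 1, 2, 3 and 5 h although its level was higher in Jeps at every time point. At 0 h it had 55.3, 34.8 and 49 normalized counts in Jeps and no reads in any jeps library, a difference of at least 8.06-fold with jeps set to 3 reads per library. At 1 h it had 6459, 6290 and 8009 in Jeps and 2558, 2355 and 2189 in jeps. JAZ1 therefore rose 158-fold in Jeps and at least 436-fold in jeps, from a lower start, and the level stayed 2.24- to 5.93-fold higher in Jeps from 1 to 18 h. Its level difference at 1 h was 1.55 ± 0.24 (adjusted p = 6.27e-07). The fitted response change of JAZ1 has no stable value because a group lacked reads. The lower call was lost with DESeq2, with the term for time point and replicate number and without any of the 3 replicates.

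JAZ7, JAZ8, JAZ10 and AT3G22275 gave no called response change and had at most 31.6 normalized counts at 0 h in Jeps and 8.82 in jeps, both in JAZ10. JAZ8 had 721, 680 and 543 normalized counts in Jeps at 1 h and 26.8, 36.4 and 21.4 in jeps, with 0 to 4.35 at 0 h in Jeps and none in jeps, and its level difference at 1 h was 4.59 ± 0.55 (adjusted p = 2.94e-13). JAZ7 had 573, 740 and 422 in Jeps at 1 h and 8.04, 27.3 and 14.3 in jeps (5.35 ± 0.71, adjusted p = 2.11e-13). JAZ10 had 986, 1190 and 770 in Jeps at 1 h and 77.7, 72.7 and 118 in jeps (3.41 ± 0.40, adjusted p = 1.86e-12). AT3G22275, listed as a JAZ repressor gene, had 131, 200 and 113 in Jeps at 1 h and no reads in any of the 21 jeps libraries. The counts of these repressor transcripts did not overlap between the genotypes at 1 h, and the share of all genes without such overlap was not counted. JAZ5 was also higher in level at 1 h without a called response change. The promoter window held the motif in JAZ7, JAZ8 and AT3G22275 but not in JAZ10, JAZ5, JAZ1 or JAZ9. In the whole list, 5 of 16 genes held it.

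The enzymes that remove active JA showed the same direction. Of the 11 genes of JA breakdown, 10 were tested, 2 were higher in the response change (IAR3 and ILL6) and 9 were higher in level at 1 or more time points from 1 h on, and the list's median response change was 2.48 at 1 h. Beside this, 0.547% of all tested genes were higher in the response change and 3.05% in level. IAR3, an amidohydrolase that cleaves the conjugate, had 2217, 2570 and 3157 normalized counts in Jeps at 1 h and 88.4, 100 and 254 in jeps. Both genotypes started at similar counts of 46.9 to 126, and the response change was 3.69 ± 0.45 (adjusted p = 6.52e-10). ILL6, a related amidohydrolase, had 1248, 2010 and 1930 in Jeps at 1 h and 69.6, 54.5 and 118 in jeps (3.80 ± 0.73, adjusted p = 0.00157). CYP94B3, a cytochrome P450 that oxidizes the conjugate, had 468, 770 and 996 in Jeps at 1 h and 129, 72.7 and 225 in jeps. It had a single non-zero library at 0 h, so the comparison rests on its level, which was 2.31 ± 0.48 higher (adjusted p = 0.000422). Without replicate 1 or without replicate 2, 1 gene of this list kept a called response change.

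Of the 12 transcription factors of the JA list, 8 were tested, MYC2 was higher in the response change and 5 were higher in level, beside 0.547% and 3.05% of all tested genes. MYC2, the basic helix-loop-helix factor at the head of the JA response, had 393, 660 and 526 normalized counts in Jeps at 1 h and 80.4, 54.5 and 71.4 in jeps. The counts at 0 h were 158, 126 and 159 in Jeps and 97.1, 105 and 70.3 in jeps, so MYC2 rose in Jeps and was not called in jeps at 1 h. The response change was 2.15 ± 0.50 at 1 h (adjusted p = 0.0211) and 2.1 ± 0.53 at 3 h (adjusted p = 0.0457), and it was not called when any replicate was left out.

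The output genes of the pathway separated mainly in level. Of the 15 members of this list, 14 were tested, 2 were higher in the response change (FAMT and CLH1) and 13 were higher in level from 1 h on. Among all tested genes the shares were 0.547% and 3.05%. FAMT, a carboxyl methyltransferase, had the largest response change at 1 h among genes with reads in every group except ProT3. It had 6910, 7110 and 5757 normalized counts in Jeps at 1 h and 102, 118 and 114 in jeps, from 171 to 213 and 72.7 to 176 at 0 h. FAMT thus rose in Jeps and stayed flat in jeps, and the response change was 5.02 ± 0.52 (adjusted p = 2.48e-13). CLH1, a chlorophyllase, held its level in Jeps with 403, 410 and 326 at 1 h after 380 to 489 at 0 h, and dropped in jeps to 13.4, 9.09 and 7.14 after 191 to 328. Its response change was 4.42 ± 0.73 at 1 h (adjusted p = 3.23e-07) and 4.81 ± 0.79 at 2 h (adjusted p = 3.34e-08). This list had 5 called members with DESeq2, with a fit to the compared libraries alone and with either replicate term.

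Storage proteins and volatile synthesis were at or near 0 in jeps throughout. VSP1 had 30.6 to 78.3 normalized counts in Jeps at 0 h, 143 to 321 at 1 h and 195 to 632 at 3 h, and no reads in any of the 21 jeps libraries, a difference of at least 149-fold at 3 h. VSP2 had 67.3 to 335 in Jeps at 0 h and 9.09 and 10.7 as its only non-zero counts in jeps, both at 1 h. VSP1 and VSP2 are close copies, and the split of reads between them is uncertain. TPS04, a terpene synthase that makes the precursor of a homoterpene volatile, had 160, 390 and 265 in Jeps at 1 h and 0, 0 and 3.57 in jeps (level difference 7.23 ± 1.94, adjusted p = 2.49e-11). NATA1, an acetyltransferase that acts on ornithine, had 658, 432 and 637 in Jeps at 18 h and 6, 0 and 0 in jeps (7.88 ± 1.48, adjusted p = 7.56e-16). The response change of these genes was not called, and at 0 h their counts were already apart or were near 0 in both genotypes.

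**Figure D4:**
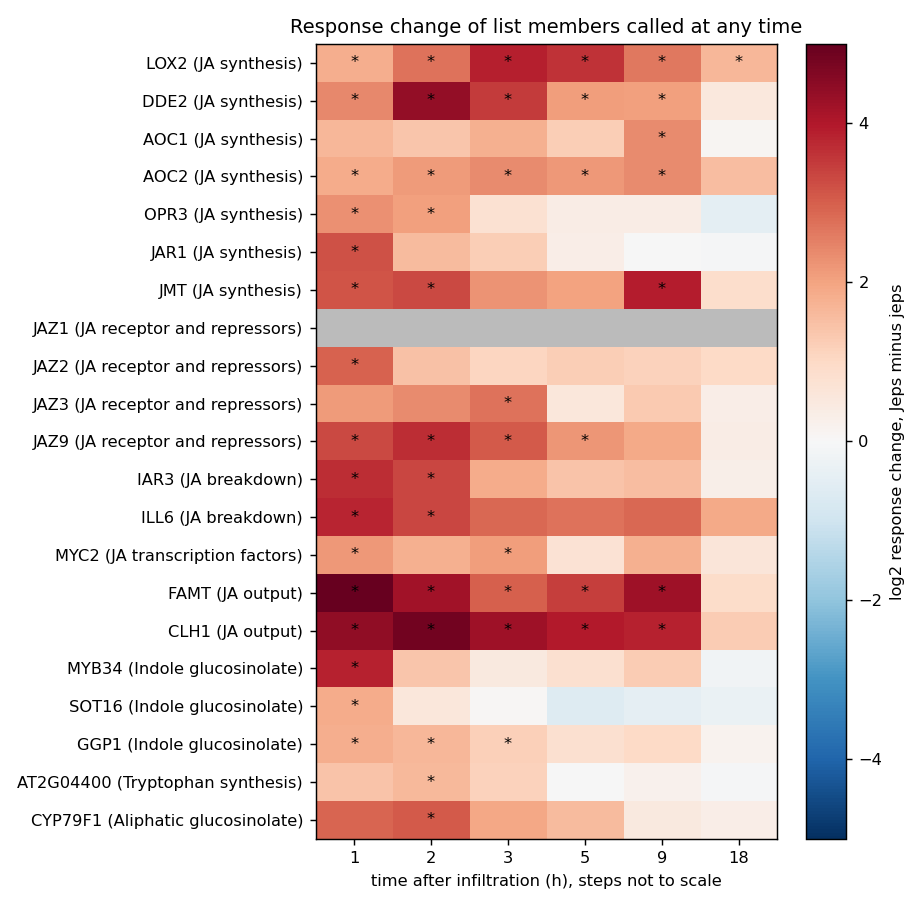
Log2 response change of Jeps minus jeps (color scale) at 1 to 18 h (columns) for the 21 list genes called at any time point (rows, list in parentheses). Asterisks mark calls and grey cells have a group without reads; the 15 JA genes called higher are red at 1 to 3 h, and most are paler at 18 h.

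Glucosinolates are sulfur-rich defense compounds of the cabbage family. Of the 19 indole glucosinolate genes, 17 were tested, 3 were higher in the response change (MYB34, SOT16 and GGP1) and none was lower, and 7 were higher and 1 was lower in level. Over all tested genes, 0.547% were higher and 0.0666% lower in the response change, and 3.05% higher and 1.13% lower in level. In the contrast of JEPS and jEPS, the pair with the other sector genes intact, the indole list had 3 genes higher and 3 lower. There, 0.806% of all tested genes were higher and 0.0933% lower. MYB34, a transcription factor of this branch, had 134, 110 and 300 normalized counts in Jeps at 1 h and 16.1, 9.09 and 10.7 in jeps, after 158 to 294 and 159 to 277 at 0 h. It fell in jeps and was not called in Jeps, and the response change was 3.86 ± 0.70 (adjusted p = 1.67e-05). GGP1, which processes the glutathione conjugate in the pathway, had 9419, 11320 and 13361 in Jeps at 1 h and 2606, 3609 and 2925 in jeps (1.81 ± 0.26, adjusted p = 1.44e-07). SOT16, a sulfotransferase of the last step of core synthesis, had 1805, 2750 and 1370 in Jeps at 1 h and 530, 618 and 382 in jeps (1.84 ± 0.44, adjusted p = 0.0294). MYB51, another regulator of this branch, was the member lower in level, by -1.57 ± 0.44 at 3 h (adjusted p = 0.0265). SOT16 was among the members lower in JEPS against jEPS (-1.70 ± 0.43 at 3 h, adjusted p = 0.0471), as were CYP79B2 and CYP83B1, P450 enzymes of core synthesis (-3.86 ± 0.73 and -1.66 ± 0.35 at 3 h). CYP79B2 and CYP83B1 had values of 0.25 and 0.32 in Jeps against jeps at 3 h, and neither was called. SOT16 was called in Jeps against jeps at 1 h only, so its values in the contrasts belong to different time points. The test of the difference between the contrasts called no gene at 3 h.

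In tryptophan synthesis, which supplies the indole branch, 7 of 8 genes were tested, 1 was higher in the response change and 5 were higher in level, while in JEPS against jEPS none was higher and 1 was lower. This gene, AT2G04400, had 606, 510 and 498 normalized counts in Jeps at 2 h and 200, 126 and 135 in jeps (1.61 ± 0.40, adjusted p = 0.0389). Of the 14 aliphatic glucosinolate genes, 13 were tested, 1 was higher in the response change and 8 were higher in level, and 3 were higher and none lower in JEPS against jEPS. Beside both lists, 0.547% of all tested genes were higher in the response change and 3.05% in level. The shares in JEPS against jEPS were 0.806% higher and 0.0933% lower. CYP79F1, a P450 that starts this branch, had 262, 543 and 433 in Jeps at 2 h and 26.9, 94.7 and 6.59 in jeps, having fallen in both genotypes from 924 to 2017 and 1167 to 1482 at 0 h. Its response change was 3.05 ± 0.77 (adjusted p = 0.0475), and CYP79F1 has a close copy, CYP79F2, with which reads may be shared. The calls of both lists were lost without replicate 1, without replicate 3, with no filter on low counts and in the fit to the compared libraries alone. The term for time point and replicate number instead called 2 tryptophan and 7 aliphatic genes.

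Lists of the other sectors had no called response change. None was called among the tested genes, which were 18 of 23 for SA and PAD4 output, 9 of 13 for ET response and 19 of 19 for flg22 response (edgeR, adjusted p). The same held for 5 of 11 genes of the ERF branch that JA and ethylene share. It held for 4 of 19 genes of anthocyanin synthesis and 2 of 4 of camalexin synthesis. It also held for 8 of 9 genes of ABA response, 9 of 10 of the circadian clock and 17 of 17 leaf genes. List members that did not pass the read filter were not examined. Over all tested genes only 0.547% were called higher and 0.0666% lower, so no call in lists this small is near that share. In level, 2 genes of SA and PAD4 output were higher in Jeps, 1 of ET response was higher, 1 of flg22 response was higher, 1 of the ERF branch was higher and 1 lower, and 2 of ABA response were lower. The shares over all tested genes were 3.05% higher and 1.13% lower in level. GRX480, a glutaredoxin of the first list, had 233, 130 and 87 normalized counts in Jeps at 1 h and 5.36, 0 and 7.14 in jeps, a level difference of 4.78 ± 1.00 (adjusted p = 9.65e-08), and it was called at 5 of the 6 time points. WRKY62 of the same list, a WRKY transcription factor, differed by 2.82 ± 0.92 at 1 h (adjusted p = 0.0333). WRKY40, an early regulator of immune genes, had 2044, 1780 and 1800 in Jeps at 1 h and 825, 636 and 689 in jeps (1.38 ± 0.29, adjusted p = 0.000734). At the same time point ACS6, an enzyme of ethylene synthesis, differed by 1.32 ± 0.36 (adjusted p = 0.028) and ERF2, an ethylene response factor, by 2.24 ± 0.60 (adjusted p = 0.00933). ORA59, the factor at the head of the ERF branch, had 17, 31.6 and 20.2 in Jeps at 18 h and 87, 77.2 and 87.5 in jeps, lower in Jeps without overlap (-1.91 ± 0.56, adjusted p = 0.0277). The lower genes of ABA response were RD29A, a stress-induced protein (-1.54 ± 0.39, adjusted p = 0.0118), and ABI2, a phosphatase of ABA signaling (-2.11 ± 0.59, adjusted p = 0.0131), both at 5 h. A missing call does not show that the genotypes responded alike.

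Of the 82 genes with a higher response change in Jeps, 62 belonged to none of the lists. The largest values came from a few with low counts in jeps. ProT3, a proline transporter, had 128, 250 and 378 normalized counts in Jeps at 1 h and 16.1, 54.5 and 17.9 in jeps (5.11 ± 1.06, adjusted p = 0.000441). Its level in Jeps was 10.7-fold that in jeps at 1 h but 0.292-fold at 0 h (log2 difference -1.73 ± 0.90, not called). The response change of ProT3 thus includes a lower start in Jeps, and from 5 to 18 h its level there was 0.471- to 0.892-fold that in jeps. AT1G77885, an uncharacterized gene, kept 128, 190 and 200 in Jeps at 1 h and dropped to 5.36, 0 and 10.7 in jeps (4.48 ± 0.92, adjusted p = 7.66e-05). PGL5, annotated as a phosphogluconolactonase, had 62.9, 95 and 67.5 in Jeps at 3 h and 0, 2.17 and 0 in jeps (5.22 ± 1.91, adjusted p = 0.0051). FLR1, a leucine-rich repeat protein, had 80, 135 and 75 in Jeps at 3 h and 6.67, 4.35 and 11.1 in jeps (3.93 ± 0.97, adjusted p = 0.0171).

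NSP1, a specifier protein that directs glucosinolate breakdown to nitriles, rose in Jeps from 12.2 to 55.3 normalized counts at 0 h to 314, 285 and 232 at 3 h. In jeps it was at 10, 6.52 and 11.1 at 3 h, a response change of 4.15 ± 0.93 (adjusted p = 0.0104). At 9 h NSP1 had 178, 105 and 300 in Jeps and no reads in jeps, a level at least 46.7-fold higher. Levels bounded in the same way were at least 23.1-fold higher for HPL1, annotated as a hydroperoxide lyase, at 5 h. They were at least 16.4-fold higher for HMT3, a homocysteine methyltransferase, at 1 h. HPL1 had 46.4, 96.3 and 79.7 in Jeps at 5 h, and HMT3 had 22.9, 90 and 109 in Jeps at 1 h.

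AT1G66100, annotated as a plant thionin, was the only gene besides LOX2 called at all 6 time points. It had 3782, 4130 and 3202 normalized counts in Jeps at 0 h and 2321, 2214 and 2794 in jeps. By 9 h it was at 471, 481 and 696 in Jeps and at 53.6, 8.33 and 11.1 in jeps, and by 18 h it was back at 4220, 4784 and 3826 in Jeps but at 81, 178 and 96.9 in jeps. AT1G66100 therefore fell in both genotypes and returned in Jeps alone, by the calls at 18 h. The response change was 2.02 ± 0.48 at 1 h (adjusted p = 0.0236) and 4.56 ± 0.47 at 18 h (adjusted p = 2.48e-13).

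Several enzymes of phenylpropanoid and aromatic amino acid synthesis were among the genes called at 1 h, and they are named after their values were seen. The response change at 1 h was 2.63 ± 0.34 for PAL2, which starts phenylpropanoid synthesis, and 1.65 ± 0.36 for 4CL1, which activates its acids. ADT5, an arogenate dehydratase of phenylalanine synthesis, had 2.29 ± 0.48, and DHS1, the entry enzyme of the shikimate pathway, had 1.69 ± 0.34. APK and AKN2, kinases that make the activated sulfate used by sulfotransferases, had 1.54 ± 0.28 and 1.91 ± 0.42. No list of these pathways was tested.

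The 10 genes with a lower response change in Jeps included, besides JAZ1, a transporter, kinases and a trehalase. A lower response change does not mean a lower level, and JAZ1, AT3G10720, TRE1, mtHsc70-1, EYE and CRCK1 had no time point called lower in level. PROT1, a proline transporter, had 19.7, 30 and 26.1 normalized counts in Jeps at 1 h and 158, 36.4 and 89.3 in jeps, after similar counts of 136 to 211 at 0 h (-2.08 ± 0.53, adjusted p = 0.0404). PROT1 thus was lower while ProT3 of the same family was higher at this time. AT3G10720, annotated as a pectin methylesterase inhibitor family member, rose in both genotypes to 2604, 2743 and 2332 in Jeps and 4323, 4386 and 5067 in jeps at 2 h. Its response change was -1.23 ± 0.30 at 2 h (adjusted p = 0.0335) and -1.31 ± 0.30 at 3 and 5 h (adjusted p = 0.0138 and 0.0163). LYM2, a LysM-domain protein that binds chitin, had 600, 422 and 553 in Jeps at 5 h and 900, 1326 and 1202 in jeps (-1.34 ± 0.32, adjusted p = 0.0294).

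The basal difference of TRE1, CRCK1 and EYE was not called (edgeR, adjusted p = 0.673, 0.116 and 0.0507). Their counts at 0 h did not overlap between the genotypes, but a call of a lower response change favors genes with high counts at 0 h in Jeps. The share of all genes without such overlap was not counted. TRE1, the trehalase, had 31.6, 34.8 and 36.7 normalized counts in Jeps and 0, 9.09 and 9.38 in jeps at 0 h, and 22.9, 10 and 8.7 against 42.9, 18.2 and 64.3 at 1 h (-3.73 ± 1.02, adjusted p = 0.0342). CRCK1, a calmodulin-binding receptor-like kinase, had 39.5, 17.4 and 24.5 in Jeps and 0, 4.55 and 0 in jeps at 0 h, and 140, 61.9 and 104 against 135, 162 and 168 at 2 h (-4.09 ± 1.42, adjusted p = 0.0294), a call that was lost with the term for time point and replicate number. EYE, a component of the Golgi tethering complex, had 182, 109 and 122 in Jeps and 61.8, 63.6 and 42.2 in jeps at 0 h, with a response change of -1.99 ± 0.43 at 9 h (adjusted p = 0.00428). Their levels after infiltration were not called different at these time points. The other lower genes were PTI1-4, a protein kinase (-1.60 ± 0.36 at 5 h), AT4G25730, a FtsJ-like methyltransferase (-2.3 ± 0.51 at 18 h), and mtHsc70-1, a mitochondrial chaperone (-1.28 ± 0.31 at 18 h).

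The same DDE2 contrast exists in plants with the other 3 genes intact, JEPS (Col-0) against jEPS (dde2-2), which shares no library with Jeps and jeps. There 121 genes were higher (0.806%) and 14 lower (0.0933%) at 1 or more time points, 0.9% of the tested genes together, and 412 genes were called with the term for time point and replicate number. Higher calls in both contrasts numbered 52, which is 63.4% of the 82 in Jeps and 43.0% of the 121 in JEPS. Of the 63 genes called higher at 1 h, 62 had a positive value in JEPS against jEPS and 38 were called there, where 0.407% of all genes were, with medians of 2.36 in Jeps and 2.14 in JEPS. Positive values were seen for 42.8% of all genes. FAMT had 8514, 7715 and 5910 normalized counts in JEPS at 1 h and 63.6, 88.2 and 31.1 in jEPS (5.72 ± 0.51, adjusted p = 3.75e-18), and JAZ9 gave 3.30 in both contrasts. The exception was ProT3, with -0.59 ± 1.81 in JEPS against jEPS and 5.11 ± 1.06 in Jeps against jeps.

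**Figure D5:**
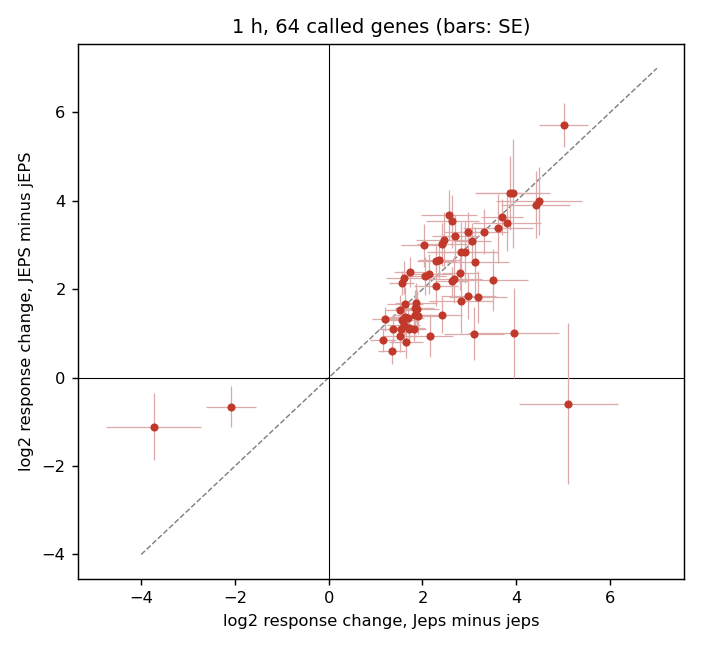
Log2 response change at 1 h in Jeps minus jeps (horizontal axis) and JEPS minus jEPS (vertical axis) of the 64 called genes with reads in every group used. Bars are SE and the dashed line marks equal values; 62 of the 63 genes called higher were above 0 in both contrasts, of which the points show those with reads in all groups.

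The difference between the 2 contrasts was itself tested for every gene and time point. It was called in no gene with edgeR, where the smallest adjusted p was 0.375, and in none with DESeq2, while 438 to 697 of the 15004 genes had an unadjusted p under 0.05 at a time point. The median SE of this difference was 0.81 to 0.85 on the log2 scale, which holds both counting error and the spread between libraries. ProT3, which differed in sign, had a difference of 5.70 (adjusted p = 1).

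All 7 other pairs of genotypes that differ at DDE2 alone were also compared with the calls, and none of them shares a library with Jeps or jeps. Of the 63 genes higher at 1 h, 61 were above 0 in all 7 pairs, as were 4.76% of all tested genes. The same held for all 31 genes higher at 2 h (7.13% of all genes), 20 of 22 after 3 h (7.62%), 12 of 14 after 5 h (4.20%), 9 of 11 after 9 h (2.43%) and both genes after 18 h (1.33%). Of the lower calls, 2 of 3 were below 0 in all 7 pairs at each of 1, 2 and 3 h, as were 6.44%, 6.93% and 4.55% of all tested genes. By 5 h, 3 of 4 were (2.64% of all genes). None was among the 1 called by 9 h (2.27%) and the 2 called by 18 h (1.85%). JAZ1, whose response change has no stable value, was among the lower calls at 1, 2, 3 and 5 h. The values of FAMT at 1 h ranged from 4.37 to 6.77 over the 7 pairs and those of DDE2 at 2 h from 3.25 to 4.50. Each pair differs in the allele of DDE2, so its values describe the mutation as well. DDE2 is also among the genes counted as higher from 1 to 9 h. In fls2, which lacks the flg22 receptor but has the 4 sector genes intact, 41 of the 63 genes rose from 0 h at 1 h, as did 15.5% of all tested genes, and 53 were above 0. OPR3 rose in fls2 by 5.99 ± 0.27 at 1 h, close to its 5.84 ± 0.27 in Jeps, and FAMT rose by 3.22 ± 0.32.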

How the data were processed

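Leaf transcripts were measured by stranded Tag-Seq in 17 genotypes, and the 42 libraries of Jeps and jeps were described here. The authors trimmed barcodes, filtered homopolymer reads, mapped reads to TAIR10 transcripts with Bowtie 0.12.8, kept forward-strand reads mapping to 1 gene and deposited raw counts per gene, which are not normalized. The table held 33600 genes, of which 15004 with at least 10 reads in at least 3 of the 42 libraries were tested. To scale a library, counts were divided by its 90th percentile count relative to 300, as in the study's methods. The percentile was taken over the 26275 genes with reads in any library, including those without reads in the library itself.

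A model with 1 mean for each of the 119 groups was fitted to all 357 libraries with the quasi-likelihood method of edgeR 4.0.16 in R 4.3.3, so the groups shared an estimate of spread. Benjamini-Hochberg adjustment was pooled over genes and the 6 time points after 0 h. Calls needed an adjusted p under 0.05 and an absolute log2 value above 1. Errors of log2 values are SE. Where a group had no reads, no SE or fitted fold is given, and folds use a floor of 3 reads per library, which covers counting error only. The fit was tested on simulated data. Replicate numbers were not used to pair libraries in this fit. The study's infiltration schedules list all genotypes in each experiment and number the experiments in 3 sets, so same-numbered libraries probably share plants' growth and treatment dates, and counts with a replicate term are printed beside the calls.

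The text names DDE2, EIN2, PAD4, SID2 and FLS2, list members, and at each time point the 4 highest and 3 lowest called genes with the same sign in each replicate (from log2 of normalized count plus 1). The members and lists were chosen with earlier results of these data known, so list counts are not independent evidence. All 251 list genes had a RefSeq entry (TAIR10.1), as did 14908 of the tested genes. Alternatives were TMM, DESeq2 1.42.0, other filters, the compared libraries alone, replicate terms, another adjustment family and leaving out each replicate. The comparisons of levels and of 1 h with 18 h were added after the files were seen.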

Additional observations from a re-analysis of the deposited data

Results flagged for a closer look

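The response change of Jeps against jeps was compared between 1 h and 18 h by a test of the difference itself, in which the shared 0 h libraries cancel. In this test 84 genes were higher and 8 were lower at 1 h (0.613% of 15004 together, edgeR, adjusted p under 0.05 and absolute log2 difference above 1). The genes named below had mostly been called at 1 h, so a fall toward 18 h was favored by their choice. Among JA biosynthetic genes the difference of 1 h minus 18 h was 1.89 for DDE2, 2.8 for OPR3 and 3.23 for JAR1. Among the repressors it was 1.97 for JAZ2 and 2.95 for JAZ9, and among breakdown genes 3.42 for IAR3. Output genes gave 4.09 for FAMT and 3.15 for CLH1. In the glucosinolate and tryptophan lists it was 4.03 for MYB34, 2.15 for SOT16, 1.65 for GGP1 and 1.48 for AT2G04400. Outside the lists, AT1G77885 had 4.62, ProT3 had 4.41 and HMT3 had a fitted 7.49, which has no stable size because HMT3 lacked reads in jeps at 1 h.

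The thionin gene AT1G66100 and the proline transporter PROT1 went the other way, with differences of -2.54 and -2.29. AT1G66100 had its larger response change at 18 h (4.56 ± 0.47) than at 1 h (2.02 ± 0.48), and PROT1 was lower in Jeps at 1 h (-2.08 ± 0.53). Libraries at 1 h and 18 h were harvested at different times of day and in different lanes, which cannot be told apart from time after infiltration here. Those of replicate 2 were also on different sequencing machines at 1 h and 18 h, and the part of the machine was not tested.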

How the results depend on the processing

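No named result reversed in any alternative: all 876 values kept their direction. These results had been called in the same data, and those picked by rank had the same sign in each replicate. A kept direction was therefore favored by their choice, and 202 of the 876 values lost their call. Of 80 called named results, 78 kept their call with TMM normalization, 70 with DESeq2, 63 with no filter on low counts, 60 with the compared libraries alone, 66 with a replicate block, 74 with a replicate block within each time point, 80 with another adjustment family, and 36, 39 and 32 without replicate 1, 2 and 3, where fewer libraries were fitted. With the study's filter all 76 that could be fitted kept it. With the replicate block within time point, counts of called genes from 1 h to 18 h were, in order, 158, 101, 93, 65, 49 and 23, and they were 412 for JEPS against jEPS, 1183 for levels and 302 for 1 h against 18 h. With adjustment over 96 comparisons they were 122, 65, 56, 35, 41 and 16. The compared libraries alone gave 11 at 5 h, 2 at 18 h and 69 for JEPS against jEPS. At 18 h, 2 genes were called with no filter and 2 with the replicate block, which gave 84 for JEPS against jEPS. Leaving out a replicate gave 21 to 33 genes at 1 h, 8 to 17 at 2 h, 10 to 17 at 3 h, 3 to 9 at 5 h, 5 to 9 at 9 h, 1 to 3 at 18 h, 11 to 12 at 0 h, 40 to 81 for JEPS against jEPS, 391 to 465 for levels and 24 to 56 for 1 h against 18 h. The cause was not tested. The block was checked as follows. Same-numbered Jeps and jeps libraries had correlations of 0.097 to 0.36 in their deviations from group means (20 of 21 above 0.1), against a median of -0.122 for other pairs, and 42 of 42 libraries correlated best with their own number, a hint from the data. Since 1 pair was below 0.1 and the labels do not state a pairing, the tests reported above carry no block, although the infiltration schedules point to shared experiments. The median SE of a response change was 0.58 to 0.63, and the shares of counting error and of spread between libraries in it were not separated.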
